A study of Mus musculus with 6 samples.

Results

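NBCe1-B and NBCe1-C are variants of the sodium bicarbonate cotransporter encoded by Slc4a4, and the mRNAs of 8 genes that act on the amino terminus of NBCe1-B, or that share a partner with those that do, were followed here in the mouse heart. They were taken by name from the 16018 genes of the deposited table, and each of the 8 was listed: Ahcyl1 (IRBIT) and Ahcyl2 (long-IRBIT), the kinases Wnk1, Stk39 (SPAK) and Oxsr1 (OSR1), and the IP3 receptors Itpr1, Itpr2 and Itpr3. The rule names them by their roles and uses no measured value, but the genes were chosen with earlier results of these data known. Hearts came from 3 female mice labelled as knockouts of NBCe1-B and NBCe1-C (KOb/c), a line made to lack both in every tissue, and 3 female wild-type (WT) mice, all on a C57BL/6J background and between 4 and 5 weeks of age, with no other treatment named. Each library was made from the total RNA of a heart, by RNA sequencing, in which RNA is converted to DNA fragments that are read and counted gene by gene. The comparison of KOb/c with WT addresses whether the mRNA of these regulators differs in a heart that lacks the transporters they act on.

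IRBIT sits in the IP3-binding site of IP3 receptors, the Ca2+ release channels of the endoplasmic reticulum, and leaves it when IP3 is produced. Freed IRBIT binds the amino terminus of NBCe1-B and activates the transporter. WNK kinases phosphorylate SPAK and OSR1, which phosphorylate and restrain the transporter, and IRBIT opposes them by recruiting protein phosphatase 1. In cardiomyocytes, IP3 receptors act beside the much more abundant ryanodine receptors and lie largely around the nucleus and in the atria.

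Reads counted on genes ranged from 42619258 to 49100802 in KOb/c libraries and from 41364857 to 42037397 in WT libraries. The values given below are normalized counts, meaning reads scaled by the size factor of the library. The targeted gene, Slc4a4, was at 264, 944.8 and 268.7 normalized counts in the hearts labelled KOb/c (replicates 1, 2 and 3), against 675.1, 822.2 and 788.8 in WT (replicates 1, 2 and 3). KOb/c replicate 2 thus went against its label and lay above each WT library, so the fold changes and calls of the 8 genes below were also computed without it. These counts cover the whole gene, and neither NBCe1-B nor NBCe1-C mRNA was measured apart. Each of 7 cardiomyocyte markers was listed, with at least 41400 normalized counts in every library. Their summed level was 2466181 to 2787933 in KOb/c and 2067706 to 2177217 in WT hearts. That of 6 endothelial markers was 40605 to 43704 and 37145 to 39502, with no overlap in either case. Taken gene by gene, 5 of the 7 cardiomyocyte markers and 5 of the 6 endothelial markers were higher on average in KOb/c. A sum is weighted toward its most abundant genes, so not every marker followed these shifts. The part of these shifts in the results below was not tested. In whole hearts, fewer cells of a type and less RNA per cell cannot be told apart.

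The 8 regulators were each higher on average in KOb/c than in WT hearts, by 7.8% (Stk39) to 32.5% (Itpr1). Wnk1, the upstream kinase, and Itpr1, an IP3 receptor, had the largest differences, of 31.9% and 32.5%, followed by Ahcyl2 (25.4%) and Itpr3 (24.8%). By limma with Benjamini-Hochberg adjustment over the 16016 genes tested, none of the 8 differences was significant, where 0 of all genes were (0.0%). The paper does report genes with significantly different expression between WT and KOb/c hearts by RNA sequencing, and names no test for them. A count model, the Wald test of DESeq2, called 1587 of 11981 genes here. By that test, Wnk1 and Itpr1 were significantly higher in KOb/c. The differences of the 8 genes became smaller, and neither of these was significant, once each library had been corrected for a dependence on transcript length and GC content.

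All 8 genes passed the filter of a mean of at least 10 normalized counts. A log2 fold change above 0 was found for 8 of 8, against 49.2% of all genes tested. All KOb/c libraries lay above all WT libraries for 7 of 8, against 15.6% of all genes, or 30.2% when genes with all KOb/c libraries below WT are counted too. An unadjusted p-value under 0.05 by limma, with the higher level in KOb/c, was found for 7 of 8, against 13.0% of all genes. Over all genes, 2083 were higher and 1681 lower at that p-value, a split that moved to 1259 and 2539 when each library was rescaled to the same total, and then 4 of the 8 regulators remained under 0.05, with all 8 still higher. DESeq2 gave an adjusted p-value under 0.05, with the higher level in KOb/c, for 2 of 8, against 8.22% of genes. The 3 animals of a group are the replicates, and the 8 genes are not replicates of one another.

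The start regions of the regulators are shown as a description, and whether they bear on the differences above was not tested. A RefSeq window of the 250 bases before a transcription start (GRCm38.p6) was given for 7 of the 8 genes, Ahcyl1, Ahcyl2, Wnk1, Stk39, Oxsr1, Itpr2 and Itpr3. One gene of each role is printed 5′ to 3′ on the strand of the gene, in lower case, with each GGGCGG, or CCGCCC where it lies on the other strand, in capitals. The windows are chr3:107696561-107696810 on the minus strand for Ahcyl1, chr6:120038656-120038905 on the minus strand for Wnk1 and chr17:27057054-27057303 on the plus strand for Itpr3.
Ahcyl1: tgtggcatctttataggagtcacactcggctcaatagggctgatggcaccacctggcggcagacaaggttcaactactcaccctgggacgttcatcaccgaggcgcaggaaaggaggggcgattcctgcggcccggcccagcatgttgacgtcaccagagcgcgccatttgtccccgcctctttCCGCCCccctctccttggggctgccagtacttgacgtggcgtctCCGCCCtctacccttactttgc
Wnk1: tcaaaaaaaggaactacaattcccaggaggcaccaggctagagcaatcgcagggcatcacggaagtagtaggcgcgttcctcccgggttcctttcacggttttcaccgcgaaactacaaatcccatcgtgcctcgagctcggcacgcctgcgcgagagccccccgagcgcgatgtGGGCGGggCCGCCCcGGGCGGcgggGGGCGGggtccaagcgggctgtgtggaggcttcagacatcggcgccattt
Itpr3: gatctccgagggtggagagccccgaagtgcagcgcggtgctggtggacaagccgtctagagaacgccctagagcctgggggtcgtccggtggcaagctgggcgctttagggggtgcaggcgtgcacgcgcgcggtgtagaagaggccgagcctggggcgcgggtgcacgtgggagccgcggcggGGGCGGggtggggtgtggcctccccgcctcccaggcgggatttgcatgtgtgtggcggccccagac
GGGCGG, the core of the GC box that Sp-family factors bind, was found 2 times in the Ahcyl1 window, 4 times in that of Wnk1 and 1 time in that of Itpr3, counting both strands. The first window of each of the 7 genes held it on either strand, against 32.7% of 32851 windows of the same length. That share covers all windows given, not only those of genes detected in heart. Among the 11 windows of the 7 genes, the last of Ahcyl1 and the last of Ahcyl2 held none. The 7 first windows held 16 (Ahcyl1) to 43 (Stk39) CpG dinucleotides, where the median of all windows was 6. Their GC content was 61.2% to 82.4%, where the median was 52.4%. The later windows of Ahcyl2 held 5 and 2 CpG dinucleotides, with a GC content of 48.4% and 41.2%. TATAAA was found in the printed Ahcyl1 window only on the other strand, near the end away from the start. On either strand, 12.4% of all windows held it. CACGTG was found in the Itpr3 window and in 6.02% of all windows. A match of letters describes the window and does not show that a factor binds there.

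**Figure D1:**
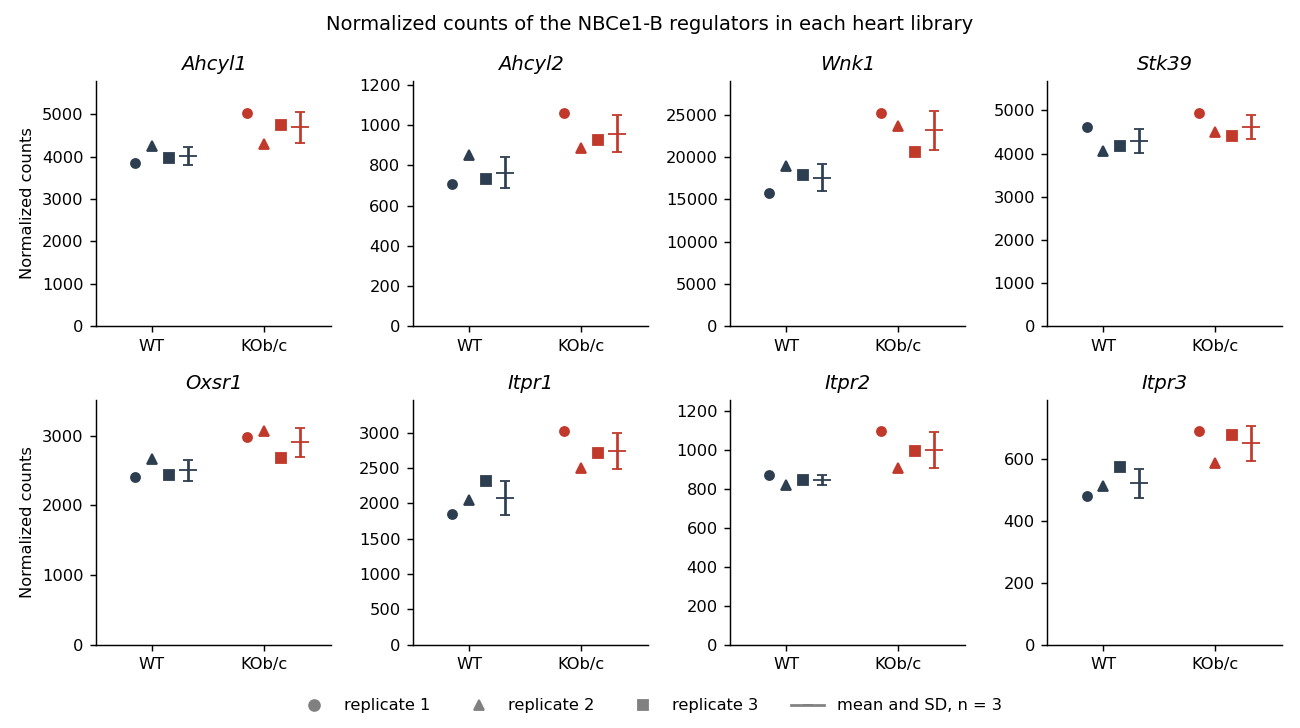
Normalized counts of the 8 regulators in each heart, with the mean and SD of the 3 KOb/c and 3 WT libraries and a marker shape for each replicate number. The KOb/c values lie above every WT value for all genes except Stk39, and KOb/c replicate 2 is close to the highest WT value for Ahcyl1.

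Ahcyl1 (ENSMUSG00000027893; chromosome 3 from 107663118 to 107696560, minus strand, GRCm38) encodes IRBIT. It was at 5026.8, 4291.1 and 4744.7 normalized counts in KOb/c hearts and at 3838.5, 4244.3 and 3956.5 in WT hearts, here and below in the order of replicates 1, 2 and 3. The groups did not overlap, but the lowest KOb/c value, that of replicate 2, was separated from the highest WT value by less than the SD of either group. The means were 4688 ± 371 in KOb/c and 4013 ± 209 in WT (SD, n = 3 each), a log2 fold change of 0.22 ± 0.08 (SE; limma with Benjamini-Hochberg adjustment, adjusted p = 0.132). Fold changes are KOb/c over WT on the log2(normalized count + 1) scale. DESeq2 gave an adjusted p of 0.0708, and 0.025 without KOb/c replicate 2, where the log2 fold change was 0.28.

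Ahcyl2 (ENSMUSG00000029772; chromosome 6 from 29768011 to 29912310, plus strand) encodes the related protein with a longer amino terminus. Its normalized count was 1060.9, 884.9 and 924.1 in KOb/c and 706.9, 850.3 and 731.1 in WT hearts. Again all KOb/c values were the higher, and KOb/c replicate 2 and WT replicate 2 were nearest to each other. The means were 957 ± 92.4 and 763 ± 76.8 (SD, n = 3 each), with a log2 fold change of 0.33 ± 0.10 (SE; adjusted p = 0.115 by limma and 0.0509 by DESeq2). An annotated transcript of the opposite strand, 4930528J11Rik, overlaps its exons, and reads of the pair cannot be told apart if strand was not used in counting.

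The Ahcyl2 to Ahcyl1 ratio, with each gene divided by the length of its longest annotated transcript, was 0.153 ± 0.00627 in KOb/c and 0.142 ± 0.00687 in WT hearts (SD, n = 3 each). The log2 difference of 0.10 was not significant (p = 0.2, exact two-sided permutation test, where 3 mice against 3 can give no p below 0.1). Ahcyl1 mRNA was the more abundant of the family in every heart, and WT replicate 2 lay within the KOb/c range of the ratio.

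Wnk1 (ENSMUSG00000045962; chromosome 6 from 119923969 to 120038672, minus strand) encodes the kinase that activates SPAK and OSR1. Normalized counts of Wnk1 were 25252.9, 23689.4 and 20605.2 in KOb/c and 15808.9, 18984.4 and 17936.8 in WT hearts. Each KOb/c value was above each WT value, KOb/c replicate 2 included. The means were 23182 ± 2365 and 17577 ± 1618 (SD, n = 3 each), with a log2 fold change of 0.40 ± 0.10 (SE; 95% confidence interval 0.18 to 0.62, adjusted p = 0.0844 by limma with Benjamini-Hochberg adjustment). By DESeq2 the adjusted p was 0.00309, and it was 0.000524 to 0.0478 with each library left out in turn. After the length and GC correction, the log2 fold change was 0.14 and the interval, -0.04 to 0.31, included 0 (adjusted p = 0.436 by DESeq2).

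Stk39 (ENSMUSG00000027030; chromosome 2 from 68210445 to 68472268, minus strand) encodes SPAK, the kinase through which WNK signals reach NBCe1-B. Its normalized count was 4939.4, 4505.1 and 4405.9 in KOb/c and 4603.8, 4068.6 and 4178.2 in WT hearts. It was the one regulator whose groups overlapped, with WT replicate 1 above KOb/c replicates 2 and 3. The means of 4617 ± 284 and 4284 ± 283 (SD, n = 3 each) did not differ significantly (log2 fold change 0.11, 95% confidence interval -0.06 to 0.28, adjusted p = 0.406 by limma and 0.438 by DESeq2). That interval included both 0 and the log2 fold change of Ahcyl1.

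Oxsr1 (ENSMUSG00000036737; chromosome 9 from 119238432 to 119322427, minus strand) encodes OSR1, the close relative of SPAK. Its normalized count was 2979.3, 3063 and 2676.5 in KOb/c and 2402.3, 2673.6 and 2439.7 in WT hearts. The groups did not overlap, but KOb/c replicate 3 and WT replicate 2 were almost equal. The means were 2906 ± 203 and 2505 ± 147 (SD, n = 3 each), with a log2 fold change of 0.21 ± 0.08 (SE; adjusted p = 0.143 by limma and 0.0966 by DESeq2). The Stk39 to Oxsr1 ratio per kb of transcript was 2.09 ± 0.138 in KOb/c and 2.26 ± 0.259 in WT hearts (SD, n = 3 each; exact two-sided permutation test, p = 0.4). SPAK mRNA was the more abundant of these kinases in every heart, and the balance between them was not significantly different.

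Itpr1 (ENSMUSG00000030102; chromosome 6 from 108213096 to 108551109, plus strand) encodes the type 1 IP3 receptor. KOb/c hearts had normalized counts of 3017, 2504.8 and 2705.8, and WT hearts 1844, 2042.6 and 2322.1. No KOb/c value reached down to the WT range. The means were 2743 ± 258 and 2070 ± 240 (SD, n = 3 each), with a log2 fold change of 0.41 ± 0.10 (SE; 95% confidence interval 0.18 to 0.64, adjusted p = 0.0844 by limma with Benjamini-Hochberg adjustment). DESeq2 gave an adjusted p of 0.00636, which was 0.00732 without KOb/c replicate 2. It was 0.0482 without KOb/c replicate 1 and 0.0713 without WT replicate 1, with a log2 fold change of 0.33 in each case. The call was thus lost without WT replicate 1, where DESeq2 called 428 genes in all, against 1587 with every library. After the length and GC correction, the log2 fold change was 0.16 (95% confidence interval -0.03 to 0.35, adjusted p = 0.452 by DESeq2). Annotated transcripts of the opposite strand, Gm44040 and Gm44101, overlap its exons.

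Itpr2 (ENSMUSG00000030287; chromosome 6 from 146108299 to 146502223, minus strand) encodes the type 2 receptor, which is the form best known from cardiomyocytes. Its normalized count was 1096.7, 908.7 and 995.9 in KOb/c and 872.8, 820.2 and 848.6 in WT hearts. The KOb/c values were the higher and the more spread, with a mean 18.1% above that of WT. The log2 fold change was 0.24 ± 0.09 (SE; adjusted p = 0.152 by limma and 0.121 by DESeq2), and after the length and GC correction it was -0.03 (95% confidence interval -0.24 to 0.18). With the correction but without KOb/c replicate 2 it was 0.04, so the direction of Itpr2 depended on both.

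Itpr3 (ENSMUSG00000042644; chromosome 17 from 27057304 to 27122223, plus strand) encodes the type 3 receptor, which is prominent in epithelia. Its normalized count was 690.7, 588.2 and 678.4 in KOb/c and 480.5, 513.5 and 574.3 in WT hearts. KOb/c replicate 2 and WT replicate 3 lay close together, and the other KOb/c hearts were well above WT. The means were 652 ± 56 and 523 ± 47.6 (SD, n = 3 each), with a log2 fold change of 0.32 ± 0.10 (SE; adjusted p = 0.121 by limma and 0.07 by DESeq2). Without KOb/c replicate 2, the log2 fold change was 0.39 and the adjusted p by DESeq2 0.0478. Its exons overlap Itpr3os on the opposite strand and Mir7677 on the same strand.

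**Figure D2:**
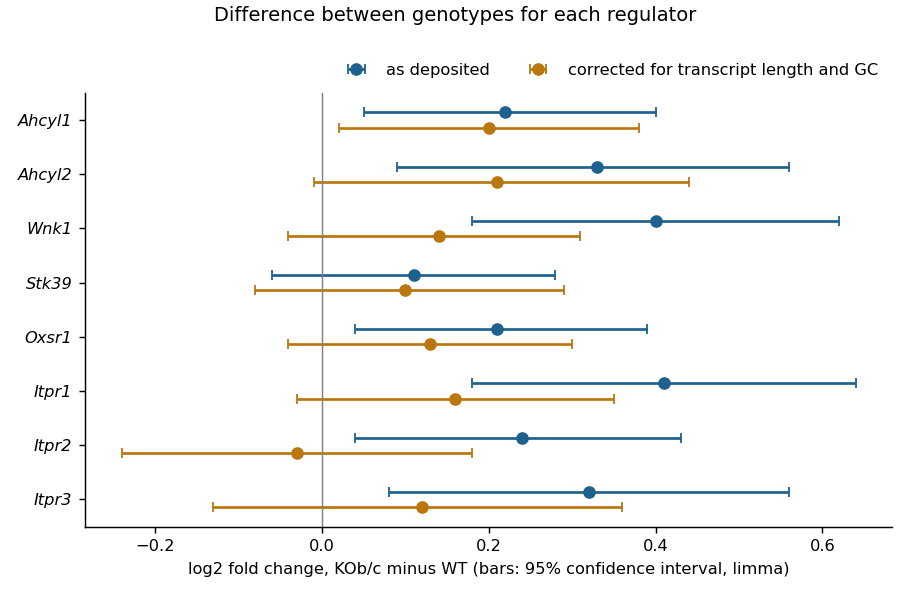
Log2 fold change (KOb/c over WT, with the 95% confidence interval) of the 8 regulators by limma, for the deposited values and with the length and GC correction. The deposited values run from 0.11 (Stk39) to 0.41 (Itpr1), and the corrected ones from -0.03 (Itpr2) to 0.21 (Ahcyl2), where only the interval of Ahcyl1 stays above 0.

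As separate tests of each gene, the exact two-sided permutation test gave p = 0.1, the smallest possible with 3 mice a group, for 7 genes, and p = 0.3 for Stk39. Leaving out each library in turn kept every log2 fold change above 0, within 0.06 to 0.16 for Stk39 and 0.33 to 0.49 for Itpr1. Without KOb/c replicate 2, DESeq2 gave an adjusted p under 0.05 for 4 of the 8 genes, Ahcyl1, Wnk1, Itpr1 and Itpr3, against 7.16% of genes higher in KOb/c, and limma gave an unadjusted p under 0.05 for 6 of 8, against 11.9% of genes higher in KOb/c. Counting error was 0.699% (Wnk1) to 4.11% (Itpr3) of the count, below the SD of each group for each gene except Itpr2 in WT hearts (SD 3.11%, counting error 3.28%).

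A comparison of levels between genes needs division by length, since a long transcript yields more reads. Per kb of the longest annotated transcript, the order of the mean levels over the 6 hearts was Wnk1 (1799 normalized counts per kb), Stk39 (1259), Ahcyl1 (1126), Oxsr1 (582), Itpr1 (244), Ahcyl2 (167), Itpr2 (79.1) and Itpr3 (65.4). This order held in each of the 6 libraries. Across libraries, however, the ranges of neighbours overlapped for Wnk1 and Stk39, for Stk39 and Ahcyl1, for Itpr1 and Ahcyl2, and for Itpr2 and Itpr3, and they did not overlap for the other neighbours. Wnk1 was at the 92.6th percentile of all genes and Itpr3 at the 33rd. Divided by the length of all exons merged, Stk39 (898 per kb) and Wnk1 (893) changed places, as did Itpr3 (65.2) and Itpr2 (62.4), and Ahcyl2 (47.1) came last, so these positions depend on the length used.

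Set against the transporter, Ahcyl1 was at 10.9 ± 0.724 times the level of Slc4a4 per kb in WT hearts (SD, n = 3). The ratio was 39.1 and 36.3 in KOb/c replicates 1 and 3, and 9.32 in KOb/c replicate 2. It was thus far above WT in the libraries with low Slc4a4 counts and below each WT library in the other.

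Among the IP3 receptors, Itpr1 had the largest share of the mRNA in every heart. Its share of the 3 receptors' summed level per kb of the longest transcript was 64.2%, 63.9% and 63% in KOb/c and 59.3%, 61.9% and 63.3% in WT hearts. The groups overlapped, with WT replicate 3 inside the KOb/c range (63.7% ± 0.592 and 61.5% ± 2.01, SD, n = 3 each; exact two-sided permutation test, p = 0.2). The share of Itpr2 was 19.6% ± 0.0618 in KOb/c and 21.4% ± 2.12 in WT hearts (p = 0.4, exact permutation test), and that of Itpr3 was 16.7% ± 0.631 and 17.1% ± 0.108 (p = 0.4, exact permutation test). No share differed significantly, and the share of Itpr1 stayed within 59.3% to 64.2% over the 6 hearts. Per kb of merged exons, the shares in KOb/c and WT hearts were 51.7% and 49.4% for Itpr1, 23.3% and 25.2% for Itpr2, and 25% and 25.4% for Itpr3, so that the order of Itpr2 and Itpr3 depended on the length used.

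**Figure D3:**
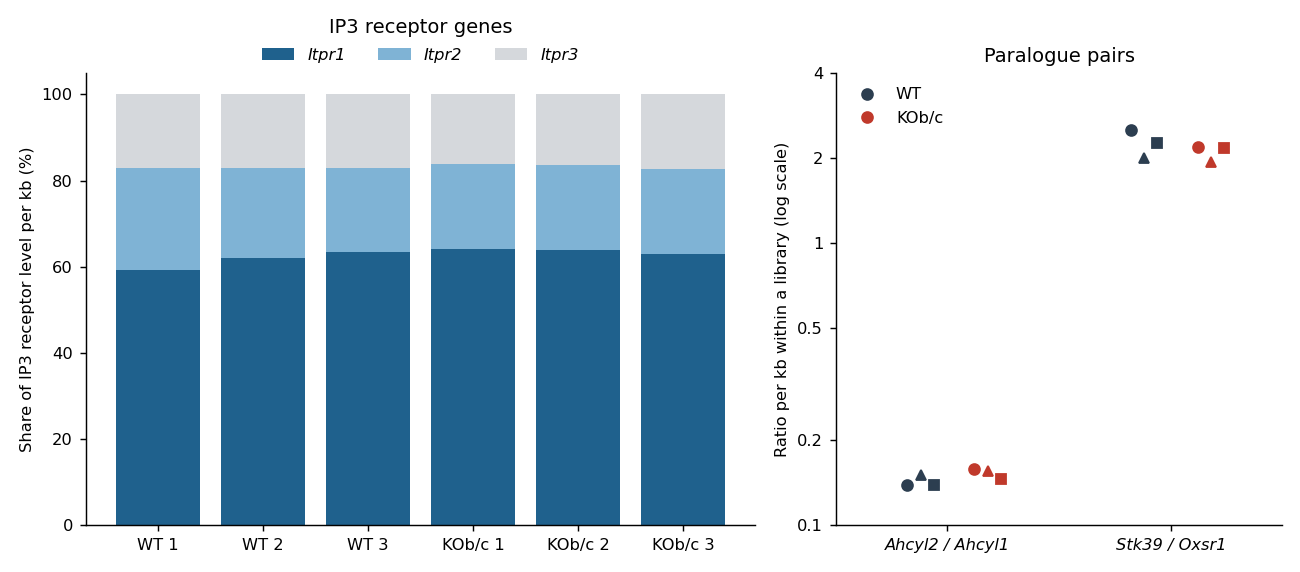
Each IP3 receptor's share of the summed level (percent, stacked bars, 1 bar for each heart) and the Ahcyl2 to Ahcyl1 and Stk39 to Oxsr1 ratios (log axis, 1 point for each heart, marker shapes for replicate numbers), all per kb of the longest transcript. KOb/c and WT hearts overlap in each share and ratio, with Itpr1 at 59.3% to 64.2% and the Ahcyl2 to Ahcyl1 ratio at 0.138 to 0.158.

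The regulators have transcripts of 3536 (Stk39) to 11679 nucleotides (Itpr2), each longer than the median of 3188 over all genes. Over all genes, which are no independent replicates, larger log2 fold changes went with longer transcripts (Spearman's rho = 0.45, and 0.03 after the correction). Genes with transcripts of 9000 to 12000 nucleotides, the class of Wnk1, Itpr1 and Itpr2, had a median log2 fold change of 0.28, with quartiles of 0.14 and 0.39, and Itpr2 (0.24) lay between these quartiles while Wnk1 (0.40) and Itpr1 (0.41) lay just above. Genes of 3000 to 4000 nucleotides, the class of Ahcyl1 and Stk39, had a median of 0.01, with quartiles of -0.13 and 0.13. Ahcyl1 (0.22) lay above that upper quartile and Stk39 (0.11) within it. Oxsr1 (0.21, upper quartile of its class 0.19) and Ahcyl2 (0.33, upper quartile 0.26) also lay above, and Itpr3 (0.32, upper quartile 0.34) did not, so that 5 of the 8 were above the upper quartile of their class.

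The trend was present in each library. The deviation of a library from the gene mean correlated with length at a Spearman's rho of 0.35, 0.30 and 0.17 in KOb/c replicates 1, 2 and 3, and of -0.34, -0.30 and -0.24 in the WT replicates. Of the 8 regulators, 8, 6 and 6 were above their own mean in the KOb/c libraries, and 1, 0 and 0 in the WT libraries. The deviations of a gene from its own mean cancel over the 6 libraries. These correlations and counts are therefore not independent of each other, and the counts restate the differences between groups given above. Genotype and this length trend cannot be told apart from these 6 libraries.

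After each library had been corrected for length and GC content, 7 of 8 regulators were still higher in KOb/c and 1, Ahcyl1, had an unadjusted p under 0.05, against 7.75% of all genes higher in KOb/c. Its corrected log2 fold change of 0.20 (95% confidence interval 0.02 to 0.38) was little below the uncorrected one. For Ahcyl2 it was 0.21 (-0.01 to 0.44). By DESeq2 with the same correction, none of the 8 had an adjusted p under 0.05, against 1.25% of genes higher in KOb/c, and 1 had an unadjusted p under 0.05, against 7.43%. Without KOb/c replicate 2, the correction left 3 genes at an unadjusted p under 0.05 by limma, Ahcyl1 (0.0127), Itpr1 (0.0339) and Ahcyl2 (0.041), or 3 of 8 against 7.98% of genes higher in KOb/c.

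**Figure D4:**
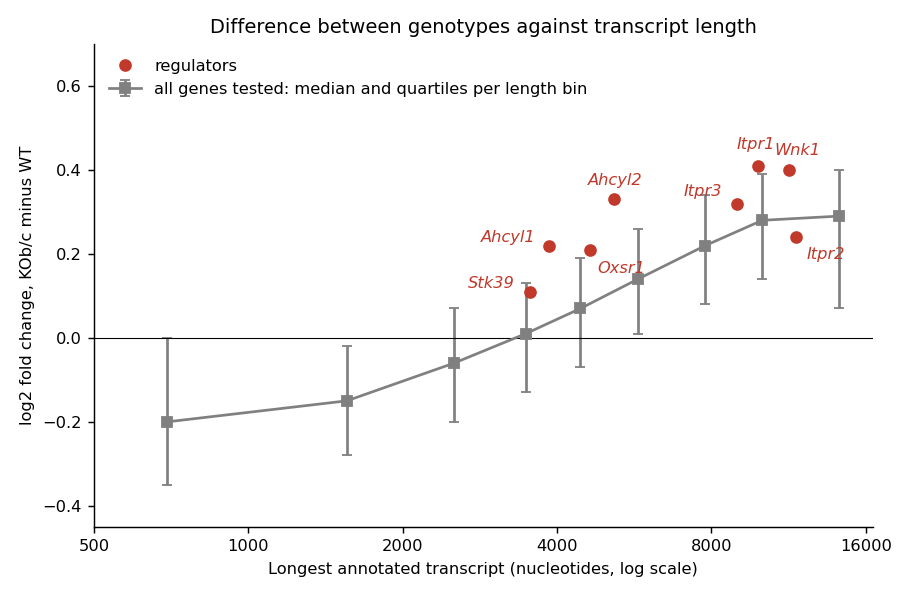
Log2 fold change (KOb/c over WT) against the length of the longest transcript (nucleotides, log axis), as the median and quartiles of all genes tested in each length class and as 1 point for each of the 8 regulators. The class medians run from -0.20 under 1000 nucleotides to 0.29 at 12000 and above, and Ahcyl1, Ahcyl2, Oxsr1, Wnk1 and Itpr1 lie above the upper quartile of their class.

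Of 68 other genes of these pathways, 65 were tested. Of those, 46 were higher on average in KOb/c hearts, against 49.2% of all genes, with a median log2 fold change of 0.10. All KOb/c values were above all WT values for 21 and below for 5, where 15.6% of all genes were above and 30.2% above or below. None passed by limma, and DESeq2 called 7 higher and 1 lower in KOb/c hearts, where it called 13.2% of all genes in either direction. After the length and GC correction, 1 of the 65 had an adjusted p under 0.05 by DESeq2, where 345 of 14152 genes did. Without KOb/c replicate 2, DESeq2 called 1197 of 11049 genes, 791 of them higher in KOb/c. It then called 4 of the other WNK pathway genes higher, 1 cotransporter higher and 2 genes of IP3 production higher. It also called 1 partner of IRBIT higher and 1 lower (Slc4a4, which is in that list), and 1 partner of the IP3 receptors lower.

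Among other kinases, scaffolds and ubiquitin ligase components of the WNK pathway, 9 of 10 were higher, against 49.2% of all genes. Their median log2 fold change was 0.19. With the length and GC correction, 8 of the 10 were higher, with a median of 0.16. DESeq2 called 3 higher and 0 lower, where it called 8.22% of all genes higher. Wnk2, another WNK kinase, had normalized counts of 3722.7, 2725 and 3279.6 in KOb/c and 1997.6, 2444.9 and 1916.9 in WT hearts. No KOb/c value overlapped WT, and the log2 fold change of 0.61 ± 0.13 (SE) was larger than that of any of the 8 regulators. Its adjusted p was 0.0815 by limma and 0.000361 by DESeq2, at most 0.0188 with any library left out, and 0.0155 by DESeq2 after the length and GC correction, where the log2 fold change was 0.46. Klhl3, the adaptor that brings WNK kinases to the Cul3 ubiquitin ligase, had normalized counts of 381.1, 255.3 and 321 in KOb/c and 189.5, 215.2 and 178.4 in WT hearts. Its groups did not overlap (log2 fold change 0.70, adjusted p = 0.0815 by limma and 0.00428 by DESeq2, or 0.087 with the correction), and DESeq2 gave no adjusted p without KOb/c replicate 1 or without WT replicate 1. Nedd4, a ubiquitin ligase, had a log2 fold change of 0.28 (adjusted p = 0.00933 by DESeq2, or 0.0742 without WT replicate 1 and 0.262 with the correction). Nedd4l, in the same list, had overlapping groups and was not called (log2 fold change 0.10, adjusted p = 0.537 by DESeq2, and -0.10 with the correction). Cul3 (0.21) and Cab39, the scaffold that activates SPAK and OSR1 (0.17), were also above WT in each KOb/c heart without passing either test.

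Of the cation-chloride cotransporters that SPAK and OSR1 phosphorylate, 4 of 4 were higher on average, against 49.2% of all genes. Their median log2 fold change was 0.11. With the length and GC correction, 2 of the 4 were higher, with a median of 0.04. DESeq2 called 1 higher, where it called 8.22% of all genes higher. Slc12a7, which encodes the potassium-chloride cotransporter KCC4, had normalized counts of 11874.7, 9352.3 and 9359.9 in KOb/c and 6888.2, 8272.4 and 6635.4 in WT hearts. Each KOb/c value exceeded each WT value (log2 fold change 0.49 ± 0.12, SE; adjusted p = 0.00195 by DESeq2). The adjusted p was at most 0.0431 with any library left out and 0.0875 with the correction.

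Of 11 partners and targets of IRBIT that were tested, 6 were higher and 5 lower in KOb/c hearts, where 49.2% of all genes were higher. Their median log2 fold change was 0.06. With the length and GC correction, 6 were higher, with a median of 0.02. DESeq2 called 1 higher and 0 lower, where it called 8.22% of all genes higher. The one called was Slc4a7, the electroneutral sodium bicarbonate cotransporter NBCn1 (log2 fold change 0.38, adjusted p = 0.0492 by DESeq2). Its call held without KOb/c replicate 2 (0.0245) and was lost without any other library, at an adjusted p of 0.0817 (KOb/c replicate 3), 0.0841 (WT replicate 3), 0.113 (WT replicate 2), 0.221 (WT replicate 1) and 0.236 (KOb/c replicate 1). With the correction its log2 fold change was 0.19. By quantitative PCR on hearts of female WT and KOb/c mice, the paper found no significant difference in NBCn1 mRNA. The catalytic subunits of protein phosphatase 1, which IRBIT recruits, did not lie on the same side of WT. Ppp1ca and Ppp1cc had log2 fold changes of -0.19 and -0.14 with no overlap between groups (-0.03 and -0.09 with the correction), and Ppp1cb had 0.17 with overlapping groups. Fip1l1, a polyadenylation factor known to bind IRBIT, and Camk2d, the main cardiac Ca2+/calmodulin-dependent kinase, were above WT in each KOb/c heart (0.19 and 0.13), and none of these 5 passed either test.

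Of 18 genes for IP3 production, 14 were higher and 4 lower in KOb/c hearts, where 49.2% of all genes were higher. Their median log2 fold change was 0.10. With the length and GC correction, 12 of the 18 were higher, with a median of 0.07. DESeq2 called 2 higher and 0 lower, where it called 8.22% of all genes higher. Plce1, a Ras-regulated phospholipase C, had a log2 fold change of 0.35 ± 0.08 (SE; adjusted p = 0.0815 by limma and 0.0058 by DESeq2), and DESeq2 gave 0.0532 without WT replicate 1 and 0.605 with the correction, which left a log2 fold change of 0.11. Ednra, the endothelin type A receptor, had a log2 fold change of 0.36 (adjusted p = 0.0428 by DESeq2 and 0.137 with the correction), and its call was also lost without KOb/c replicate 1 (0.216), KOb/c replicate 2 (0.0518), WT replicate 2 (0.159) or WT replicate 3 (0.196). Adra1a (0.48), Agtr1a (0.25), Gnaq (0.22), Adra1b (0.18) and Plcg1 (0.10), which encode other receptors, a G protein subunit and a phospholipase C that lead to IP3, were above WT in each KOb/c heart and were not called.

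Of 7 genes that break down IP3 or recycle inositol, 5 were higher and 2 lower, where 49.2% of all genes were higher. The median log2 fold change was 0.02, DESeq2 called 0 in either direction, and every gene's groups overlapped. With the length and GC correction, 3 of the 7 were higher. Of 15 partners and turnover factors of the IP3 receptors, 8 were higher and 7 lower, with a median of 0.01. The correction also left 8 higher. DESeq2 called 1 lower. That gene was Bok, a member of the Bcl-2 family that binds IP3 receptors, with normalized counts of 231.2, 323.6 and 338.8 in KOb/c and 508.1, 416.8 and 392.9 in WT hearts. Its KOb/c values were all below WT, with a log2 fold change of -0.57 ± 0.17 (SE; adjusted p = 0.0197 by DESeq2, 0.0548 without WT replicate 2 and 0.159 with the correction). DESeq2 gave Bok no adjusted p without KOb/c replicate 1 or without WT replicate 1. Fkbp1a (-0.17) was below WT in each KOb/c heart, and Vdac1 (0.15), Erlin2 (0.15), Erp44 (0.09) and Rnf170 (0.07) were above it, with no call by either test.

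**Figure D5:**
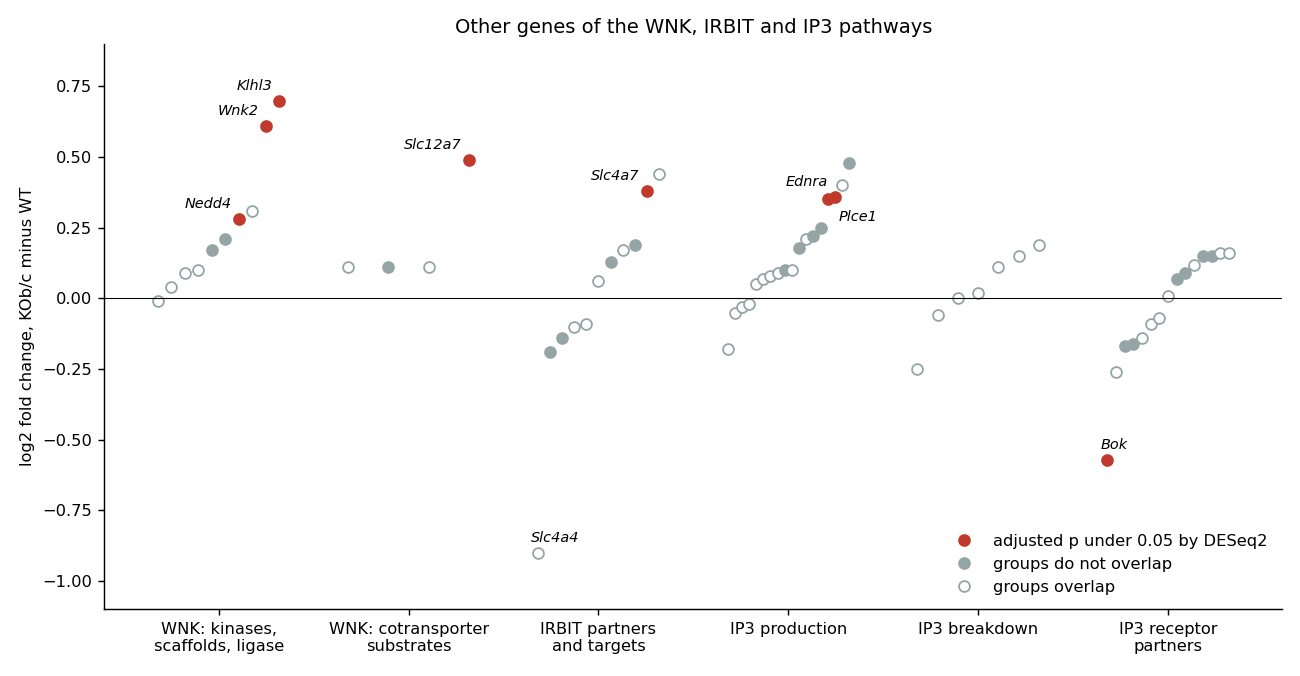
Log2 fold change (KOb/c over WT) of each tested gene of the pathway lists, with the lists side by side, genes called by DESeq2 in red, others whose groups do not overlap as filled grey points and the rest as open points. The list medians are 0.19 for other WNK pathway genes and 0.01 for IP3 receptor partners, and Bok at -0.57 is the one called gene below 0.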

How the data were processed

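RNA sequencing of 6 hearts (paired reads of 150 bp) was analysed from a table of 16018 genes. The deposited values are a signal: read counts per gene, which the authors had scaled by library size factors. The submitters' processing notes name Trimmomatic 0.36, STAR 2.5.2b, featureCounts, Subread 1.5.2, DESeq2 and GRCm38, with no role or order. The annotation, the strand setting and the treatment of shared reads are not given in the sources used here. Division of the deposited values by the value of 1 read gave whole counts for 100% of values in each library (tolerance 0.01 read).

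Genotypes and replicate numbers came from the labels. Symbols, positions and lengths were matched to GENCODE for 15980 genes. log2(normalized count + 1) was compared with limma 3.58.1 (R 4.3.3; variance trend, two-sided, Benjamini-Hochberg adjustment, threshold 0.05) over the 16016 genes whose mean was at least 10, since the values are not raw counts. Adjusted p-values cited for DESeq2 1.42.0 are from its Wald test with default settings on the recovered reads, with Benjamini-Hochberg adjustment. For the length and GC correction, splines of 5 degrees of freedom were fitted to the deviations from each gene's mean, library by library, and subtracted. Other alternatives were edgeR 4.0.16, pseudocounts of 0.5 and 5, no filter or a mean of at least 50, rescaling, quantile normalization, no variance trend, the replicate number as a block, and each library left out. Ratios and shares were compared by exact permutation tests (SciPy 1.17.1). The fits were tested on simulated data. P-values set a difference between the groups against the variation between the mice of a group. The confidence intervals of the log2 fold changes are from limma and rest on that variation too. Counting error is given apart from them, as a percentage of the count.

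Named genes are the 8 regulators, Slc4a4, pathway genes called by limma or DESeq2 or with groups that do not overlap, and the 3 genes most like each regulator. Ppp1cb and Nedd4l are named beside them for comparison. The regulators and the lists were chosen with earlier results of these data known. Of the pathway genes, Wnk3, Cftr and Irag1 matched no row by symbol, and the older symbol of Irag1, Mrvi1, did. Another 2 genes that meet this rule are not reported here.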

Additional observations from a re-analysis of the deposited data

How the results depend on the processing

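The log2 fold changes of the 8 regulators were above 0 in 221 of 224 values over 28 settings, and the exceptions were those of Itpr2 at -0.03 after the length and GC correction, by limma without and with the replicate block and by DESeq2. The number of genes called by limma, 0 of 16016 (3764 at an unadjusted p under 0.05), was 0 to 3 with each library left out and 3 without KOb/c replicate 2, 2 with the correction without KOb/c replicate 2 (chosen after seeing the data), and 0 by edgeR (3837 at an unadjusted p under 0.05). DESeq2 called 1587 genes, 428 to 1490 with each library left out (428, 1419 and 1118 without WT replicates 1, 2 and 3, and 776, 1197 and 1490 without KOb/c replicates 1, 2 and 3), and 345 with the correction. Of the 8 regulators, DESeq2 called 2, and 1 to 4 with each library left out: 1 without WT replicate 1, 4 without KOb/c replicate 2, 2 without KOb/c replicate 1, and 3 without KOb/c replicate 3, WT replicate 2 or WT replicate 3. The share of Itpr3 among the receptors differed by -0.42 percentage points and by 0.05 after the correction. The cause of these changes was not tested. With the replicate number as a block, limma called 0 genes and 0 regulators (3924 genes at an unadjusted p under 0.05). The labels use the same numbers in both groups for different mice, and deviations of same-numbered libraries correlated at 0.23, 0.07 and -0.03, so the numbers were not taken as a pairing. Not every library correlated best with its own number. The block changed no call by limma, and DESeq2 was not run with it. Counting error was at most 4.11% of the count for the 8 regulators.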

Other observations

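Each regulator was also set beside the 11908 genes whose mean normalized count was at least 100, by Pearson's r of log2(normalized count + 1) over the 6 libraries, as a description. Among the genes most like Ahcyl1 were Whrn (r = 0.994) and Mxi1 (0.994). For Ahcyl2, the 3 most like it were Gstm1 (0.999), Lpin1 (0.996) and Msh3 (0.993). For Wnk1, they were Cltc (0.999), Tead1 (0.999) and Syvn1 (0.998). For Stk39, they were Robo4 (0.99), Utp4 (0.986) and Snap29 (0.985). For Oxsr1, they were Trip11 (0.999), Zfp652 (0.994) and Nrd1 (0.993). For Itpr1, they were Myo6 (0.996), Bag4 (0.995) and Kcnd2 (0.995). For Itpr2, they were Fmo1 (0.991), Antxr2 (0.99) and Nudt4 (0.989). For Itpr3, they were Extl2 (0.997), Gm44250 (0.996) and Man2b2 (0.995). Values this high were common with 6 points: between 42 genes (Stk39) and 439 genes (Wnk1) had an r over 0.95. The length trend described above ran in opposite directions in KOb/c and WT libraries, and its part in these correlations was not tested.

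Markers of cell types other than cardiomyocytes and endothelium overlapped between the groups in their summed normalized counts. Smooth muscle markers, from cells in which IP3 receptors drive contraction, came to 95465 to 102685 in KOb/c and 78917 to 98179 in WT hearts. Fibroblast markers came to 70273 to 83462 and 73092 to 78834, and macrophage markers to 5086 to 5799 and 5002 to 5656. Atrial markers ranged from 15430 to 88185 and from 24703 to 109119, with the lowest values in KOb/c replicate 1 and WT replicate 1. No listed marker was at 0 in any library.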
